A study of Mus musculus with 2 samples.

Results

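The 37 genes described here build and anchor the folded chromosome, and they were chosen by name, as the genes of cohesin, condensin, CTCF and its partner factors, the Smc5 and Smc6 pair and the nuclear lamina, out of 49980 gene spans in the RefSeq table of the mouse. Vitamin D receptor (VDR) binding was read at each of them by chromatin immunoprecipitation and sequencing (ChIP-seq) of left ventricle from mouse embryos of stage E16.5, with 1 library for mothers on a normal diet and 1 for mothers on a diet deficient in vitamin D. The labels give no strain, sex, or number of mothers or embryos. Without replicates no test between diets was possible, and each comparison is one of 2 libraries and not of diets.

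VDR is the nuclear receptor for the active form of vitamin D, and it pairs with a retinoid X receptor and binds DNA. Cohesin is a ring of SMC proteins that extrudes loops of chromatin until it meets CTCF, and it also holds sister chromatids together. Condensin compacts mitotic chromosomes, and the lamins form a mesh under the nuclear envelope to which silent chromatin is tethered. The series asks about vitamin D in the mother, the heart of the offspring and the folding of chromatin, and these genes encode the folding machinery. A peak list shows where VDR was recovered at a gene, and carries no information on the expression of that gene.

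A peak was counted for a gene when its summit, the base with the highest coverage, lay inside the gene span or within 10 kb of either end. The strength of a peak is given as its pileup, the number of fragments over the summit, beside the background expected there. Genome-wide background was 2.65 fragments per position in the normal-diet library and 5.38 in the deficient-diet library, a ratio of 2.03. The deficient-diet library thus reached weaker sites: its lowest peak at the genome-wide background had a pileup over background of 2.97, against 4.14 for the normal diet. The normal-diet list held 23456 peaks and the other 37661. On higher local background, peaks were also listed at lower ratios, such as 2.75 at Ldb1 (deficient diet) and 3.06 at Esco2 (normal diet). A gene without a peak is therefore one with no site listed at the depth and local background of these libraries.

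RefSeq promoters (build GRCm38.p6, the same assembly as mm10) matched 29 of the 37 genes with 41 promoter sequences, each from 250 bases before to 50 after a transcription start. Ctcfl, Rad21, Stag2, Nipbl, Esco1, Esco2, Smc4 and Lmnb1 had no entry. Peaks reached into 4 of the 41 promoters, 2 in each list, and no promoter lay under peaks of both. Of all 32851 promoters of this length, 5.24% lay under a normal-diet and 5.41% under a deficient-diet peak, and of the 41, 4.88% in each list. The 4 promoters are printed 5′ to 3′ in the direction of the gene. They show part of the DNA under peaks at the starts of genes of condensin, the lamina and cohesin. Capitals mark the bases under the peak.
Ncapg: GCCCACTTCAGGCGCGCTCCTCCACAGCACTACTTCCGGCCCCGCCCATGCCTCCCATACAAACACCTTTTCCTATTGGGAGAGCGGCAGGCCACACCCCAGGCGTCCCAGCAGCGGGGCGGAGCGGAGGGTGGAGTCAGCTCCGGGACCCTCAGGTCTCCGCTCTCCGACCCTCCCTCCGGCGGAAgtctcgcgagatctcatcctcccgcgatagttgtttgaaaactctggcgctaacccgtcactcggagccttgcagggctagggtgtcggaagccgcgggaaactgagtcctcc
Lmnb2: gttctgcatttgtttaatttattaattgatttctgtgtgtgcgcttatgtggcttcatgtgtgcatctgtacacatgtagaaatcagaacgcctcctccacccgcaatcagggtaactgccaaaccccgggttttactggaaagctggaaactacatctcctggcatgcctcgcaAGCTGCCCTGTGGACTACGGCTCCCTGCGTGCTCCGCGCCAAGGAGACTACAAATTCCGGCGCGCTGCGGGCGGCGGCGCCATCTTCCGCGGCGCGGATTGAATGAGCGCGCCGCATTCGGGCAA
Wapl: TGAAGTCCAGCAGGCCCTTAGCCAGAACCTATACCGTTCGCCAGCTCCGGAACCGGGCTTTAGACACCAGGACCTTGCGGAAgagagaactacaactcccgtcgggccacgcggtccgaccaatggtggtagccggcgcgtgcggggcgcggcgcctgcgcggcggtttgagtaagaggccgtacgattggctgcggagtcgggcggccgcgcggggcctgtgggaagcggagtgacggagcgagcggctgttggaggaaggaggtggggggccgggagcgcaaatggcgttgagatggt
Smc3: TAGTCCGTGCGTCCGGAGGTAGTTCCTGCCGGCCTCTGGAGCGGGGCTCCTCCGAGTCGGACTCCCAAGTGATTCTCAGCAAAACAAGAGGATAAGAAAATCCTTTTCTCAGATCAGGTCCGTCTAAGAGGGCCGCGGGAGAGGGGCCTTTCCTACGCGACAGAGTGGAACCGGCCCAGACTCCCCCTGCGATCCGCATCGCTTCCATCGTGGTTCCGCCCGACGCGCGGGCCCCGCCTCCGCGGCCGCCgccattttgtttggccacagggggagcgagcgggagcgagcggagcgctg

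The Ncapg promoter (chr5:45669675-45669974, plus strand) had 187 of its 300 bases under a normal-diet peak, and the Wapl promoter (chr14:34673678-34673977, plus strand) had 82. The Smc3 promoter (chr19:53600146-53600445, plus strand) had 250 bases under a deficient-diet peak, and the Lmnb2 promoter (chr10:80918196-80918495, minus strand) had 125. Their GC content ran from 55.3% at Lmnb2 to 67.0% at Wapl. The median was 62.3% over the 1723 promoters under a normal-diet peak and 52.7% over all promoters. Over the 41 promoters of these genes, most of them under no peak, it was 62.0%.

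The sequences were searched on both strands for the receptor hexamers AGGTCA, its variant GGGTCA, its variant AGTTCA and its variant GGTTCA, and for direct repeats of any of these with 3 bases between them (DR3), the arrangement known for VDR and its partner. A DR3 contains a pair of the hexamers, so the searches overlap. None of the 4 promoters held a hexamer or a DR3. The summits of the peaks at Lmnb2, Wapl and Smc3 lay outside the promoter windows, so the bases at those summits were not searched. Hexamers occurred in 15 of the 41 promoters, 36.6%, in 43.7% of all promoters, and in 36.1% and 36.3% of those under a normal-diet and a deficient-diet peak. A DR3 of these letters was found in 13 of all 32851 promoters, which is 0.0396%, and in none of the 41. These matches describe the letters in the window and nothing more.

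Of the 37 genes, 17 had a normal-diet summit, 45.9% (95% binomial interval by Clopper-Pearson 29.5 to 63.1%), and 20 had a deficient-diet summit, 54.1% (36.9 to 70.5%). Longer genes collect more peaks, so each gene was set beside the 200 protein-coding genes nearest to it in span length. Of these 7400 entries, drawn from 5332 distinct genes, 56.0% had a normal-diet and 66.2% a deficient-diet summit. Summits of both lists were found at 12 of the 37 genes, 32.4% (18.0 to 49.8%), against 46.5% of genes of like length. Overlapping peaks were found at 7 genes, 18.9% (7.96 to 35.2%), against 24.4%. All 4 counts were under the share in genes of like length, which lay inside each interval. With the deficient-diet list trimmed to the length of the other, 14 genes had a deficient-diet summit, 37.8% (22.5 to 55.2%) against 54.2%. Then 8 had both, 21.6% (9.83 to 38.2%) against 39.8%, which lay just outside the interval. In the other settings given below, the share for both lay inside, as with spans alone, 18.9% (7.96 to 35.2%) against 34.8%. The intervals cover counting error only and treat genes chosen by name as draws, so they are no test of the set.

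**Figure D1:**
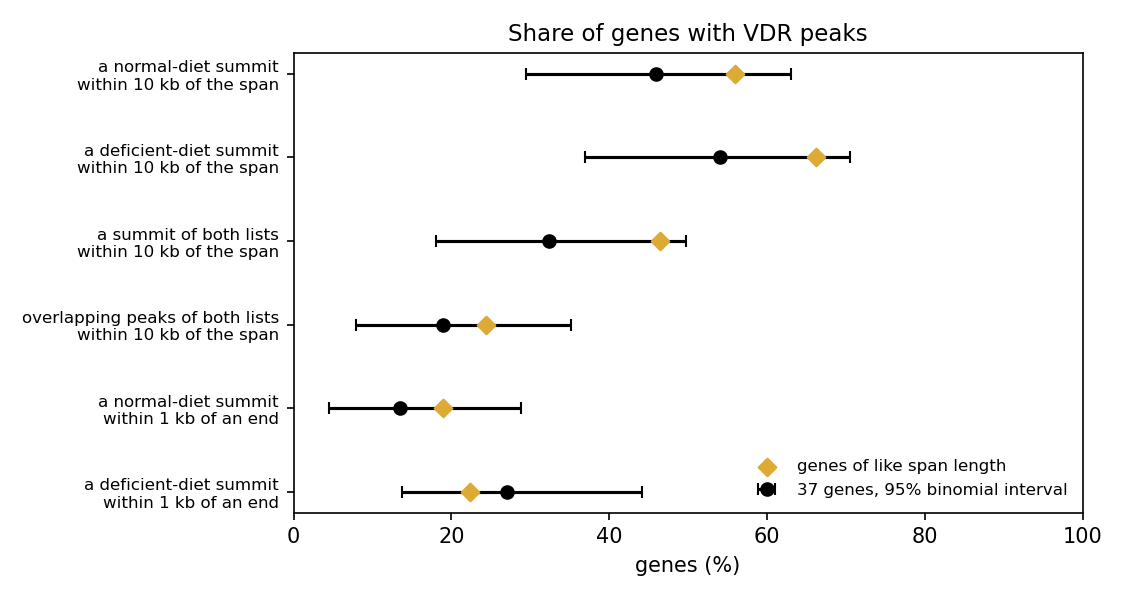
Share of the 37 genes with VDR peaks of each kind (black points, horizontal axis in percent of genes, bars the exact 95% binomial interval) beside the share in genes of like span length (yellow diamonds). Every diamond lies within the interval of its point, as with 45.9% against 56.0% for a normal-diet summit.

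The genes carried 28 normal-diet and 48 deficient-diet peaks. The sum of the means of genes of like length was 44.2 and 70.4 peaks. More deficient-diet than normal-diet peaks were counted at 13 genes, fewer at 5 and equal numbers at 19, of which 12 had none in either list. Peaks were found in the normal-diet list alone at 5 genes and in the deficient-diet list alone at 8. Genes of like length also carried more deficient-diet peaks, with means of 1.19 (normal diet) and 1.9 (deficient diet) per gene. Of them, 56.0% had a normal-diet summit, 66.2% a deficient-diet summit, 46.5% both and 24.3% neither. Peaks in the deficient-diet list alone were thus also the more frequent kind among them. With the deficient-diet list trimmed to the length of the other, its peaks at the genes numbered 29.

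**Figure D2:**
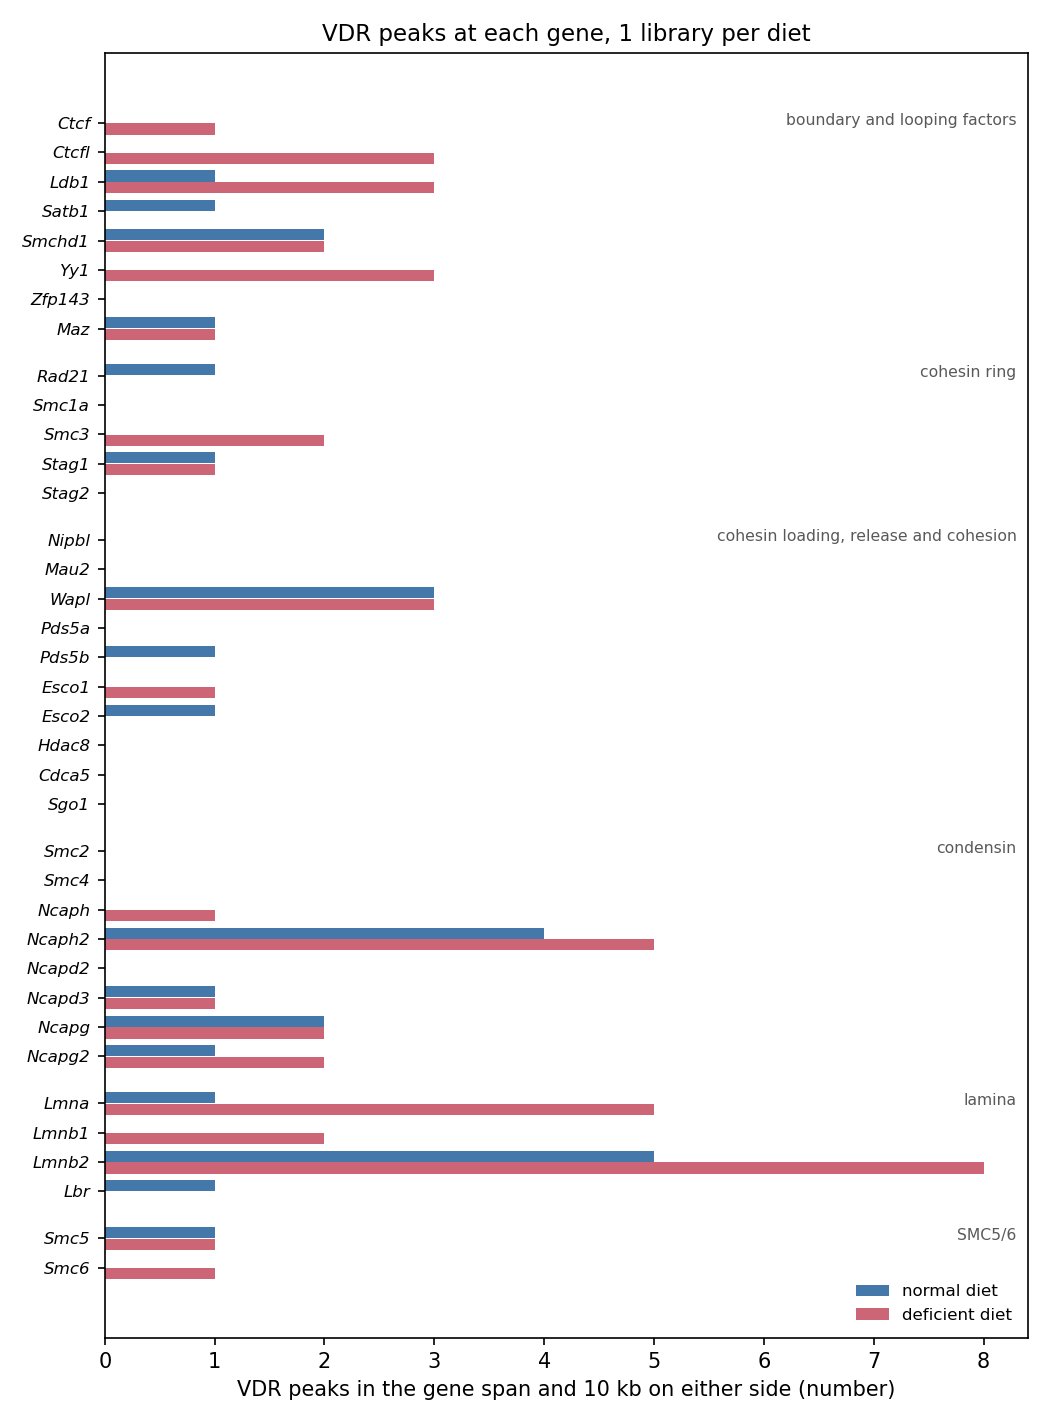
Number of VDR peaks (horizontal axis) at each of the 37 genes, grouped by role, in the normal-diet list (blue bars) and the deficient-diet list (red bars). Lmnb2 has the most in both, 5 and 8, and 12 genes have none.

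Cohesin genes were the sparsest group and lamina genes the densest. The 15 genes of cohesin and its regulators carried 7 normal-diet and 7 deficient-diet peaks, where genes of like length summed to 20.4 and 32.9. The 4 lamina genes carried 7 and 15, where genes of like length summed to 4.07 and 6.16. The 8 condensin genes carried 8 and 11, close to the 8.29 and 13.1 of genes of like length. The 8 boundary and looping factors carried 5 and 13, against 8.97 and 14.2, and Smc5 and Smc6 together 1 and 2, against 2.45 and 4.04. Gene crowding followed this order only in part. The windows held 0.987 other protein-coding genes per 100 kb at cohesin genes, 2.02 at lamina genes and 3.01 at condensin genes. Genes of like length had 1.21. Within cohesin the value was 0.281 at the 5 ring genes and 1.48 at the 10 genes of loading, release and cohesion. These 10 were thus more crowded than genes of like length, yet carried fewer peaks, as with 4 against 20.7 for the deficient diet. Crowding was also above 1.21 at boundary and looping factors, at 1.66, and at Smc5 and Smc6, at 1.24. The part of crowding in the peak counts was not tested.

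The groups rest on few genes. Without Lmnb2, the other 3 lamina genes carried 2 normal-diet peaks, where genes of like length summed to 3.26, and 7 deficient-diet peaks against 4.93. The normal-diet excess at the lamina was therefore that of Lmnb2. Without Wapl, the other 14 cohesin genes carried 4 peaks in each list, against 19.2 and 30.9. Without the 3 on the X chromosome, the cohesin counts stayed at 7 and 7, against 15.7 and 24.7.

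**Figure D3:**
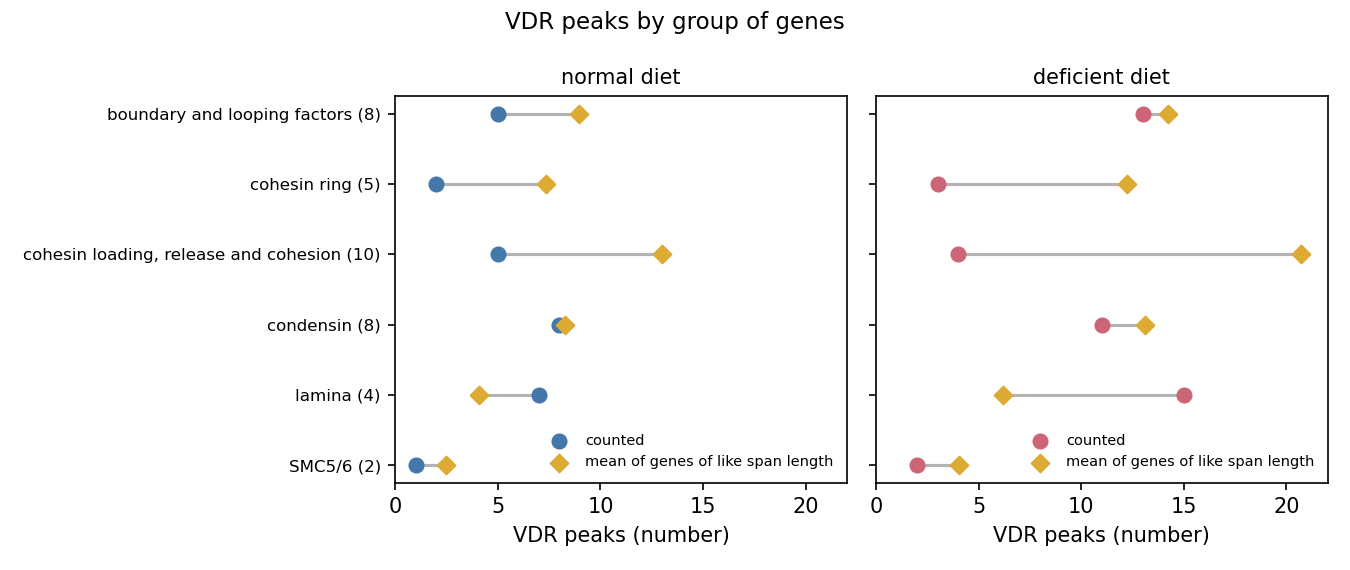
VDR peaks counted in each group of genes (circles) and the sum of the mean counts of genes of like span length (yellow diamonds), for the normal-diet list (left) and the deficient-diet list (right), with the number of genes in brackets. Both cohesin groups lie left of their diamonds and the lamina right of its own, as with 15 peaks against 6.16 in the deficient-diet list.

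In the cohesin ring, Rad21, Smc3 and Stag1 had peaks, and peaks of the lists overlapped at none of these genes. Of genes of like length to the whole set, 75.7% had a peak in either list and 24.4% an overlap, so 5 genes are too few to stand apart from them. Rad21, the kleisin that closes the ring, had 1 normal-diet peak inside the gene (chr15:51968298-51968478) with a pileup of 15 over a background of 3.00, and no deficient-diet summit within 88855 bp of its span. Smc3, one of the SMC arms, had 2 deficient-diet peaks and no normal-diet one. The first, at the promoter printed above (chr19:53600103-53600395), had its summit 274 bp before the start and a pileup of 21 over 6.79. The second lay inside the gene, 1450 bp from its 3′ end, with 20 over 5.38. Stag1, an accessory subunit and the longest gene of the set at 361 kb, had 1 peak in each list at sites far apart. Of its 200 genes of like length, 155 had at least 1 normal-diet and 181 at least 1 deficient-diet peak. Smc1a, the other arm, and Stag2, the relative of Stag1, had none.

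Among the regulators of cohesin, Wapl, which opens the ring and releases it from DNA, held the strongest peaks of the whole set. It had 3 peaks in each list. At least 3 were found at 27 (normal diet) and 56 (deficient diet) of its 200 genes of like length. Inside the gene, about the middle of its 75.6 kb span, a pair of neighbouring sites was present in both lists. The upstream site spanned chr14:34708167-34708770 for the normal diet and chr14:34708194-34708780 for the deficient diet, with summits 1 bp apart. Its pileup was 17 over a background of 2.71 and 29 over 5.50. The downstream site had pileups of 20 over 2.87 and 31 over 5.97, with summits 216 bp apart. No other gene of the table spans either site. In the authors' values these were the 2 peaks of highest -log10 q among all deficient-diet peaks at the 37 genes, at 8.06 and 8.55, and the downstream site was the highest in the normal-diet list, at 7.26. They ranked 1155 and 855 of 37661, and 7539 and 1996 of 23456.

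At the start of Wapl the lists held different sites. The normal-diet peak had its summit 291 bp before the transcription start, in the overlapping span of 5830448L01Rik, with a pileup of 19 over 3.85. The deficient-diet peak had its summit 773 bp after the start, with 27 over 7.76. These summits lay 1064 bp apart and the peaks did not overlap.

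The other regulators were nearly bare. Pds5b, which works with Wapl at the ring, had 1 normal-diet peak deep inside the gene (chr5:150734740-150734963) with a pileup of 18 over 2.65 and a -log10 q of 6.22, and no deficient-diet peak. Esco1, an acetyltransferase of Smc3, had 1 deficient-diet peak, 674 bp inside an end of its span, with 29 over 8.73. Esco2, the related enzyme of dividing cells, had 1 normal-diet peak, 3554 bp outside its span and within Ccdc25, with 17 over 5.56. No peak was found at Nipbl and Mau2, which load cohesin, at Pds5a, at Hdac8, the deacetylase of Smc3, at Cdca5, the sororin that stabilises cohesion, or at Sgo1, which shields cohesin at centromeres.

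The genes without a peak in either list were Smc1a, Stag2, Nipbl, Mau2, Pds5a, Hdac8, Cdca5, Sgo1, Smc2, Smc4, Ncapd2 and Zfp143, which is 32.4% of the set, beside 24.3% of genes of like length. Several are long. Among the 200 genes nearest in length, 14 of those of Hdac8, 25 of those of Nipbl, 28 of those of Stag2 and 35 of those of Pds5a had no peak in either list. Pds5a lay farthest from any, with the nearest summits 213530 bp (normal diet) and 262360 bp (deficient diet) from its span. Smc4 was just past the limit in the deficient-diet list, with a summit 10528 bp away, and Cdca5 in both, at 14188 and 14101 bp. The 3 genes of the set on X, Smc1a, Stag2 and Hdac8, were all among the 12. Of 31 X-linked entries of like length, 41.9% had no peak, and of all 963 other protein-coding genes on X, 73.2%.

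Condensin exists as condensin I, with Ncaph, Ncapd2 and Ncapg, and condensin II, with Ncaph2, Ncapd3 and Ncapg2, on a shared core of Smc2 and Smc4. Neither core gene had a peak. Of condensin I, Ncaph had 1 deficient-diet peak inside the gene (21 over 5.82), Ncapd2 had none and Ncapg had 2 peaks in each list. Of condensin II, Ncaph2, Ncapd3 and Ncapg2 each had peaks of both lists, as had 46.5% of genes of like length.

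Ncaph2, the kleisin of condensin II, had 4 normal-diet and 5 deficient-diet peaks in its 37.1 kb window, of which 4 and 2 lay inside the span of 17.1 kb. Of its 200 genes of like length, 5 had at least 4 normal-diet peaks and 5 at least 5 deficient-diet peaks. Sites of both lists overlapped at 2 places in its 3′ part. The upstream one had pileups of 16 over 3.10 (normal diet) and 21 over 5.82 (deficient diet), and the downstream one, which also lies in Sco2 and Tymp, 16 over 2.70 and 19 over 5.50. The strongest deficient-diet peaks lay outside the gene, 5072 bp before it (25 over 5.38) and 1373 bp after it within Tymp (26 over 5.82), both with a -log10 q of 5.82. With 4 other protein-coding genes in the window, these peaks cannot be assigned to Ncaph2 alone.

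At the 5′ ends of Ncapg and Ncapg2, peaks of both lists overlapped. At Ncapg the normal-diet summit lay 131 bp before the start (16 over 3.00) and the deficient-diet summit 525 bp before it (23 over 5.38, in the neighbouring 1600023N17Rik), so that the peaks overlapped by 99 bp while their summits were 394 bp apart. A further normal-diet peak lay 262 bp after the start. At Ncapg2 the summits were 18 bp apart, 312 and 294 bp after the start, with 17 over 2.65 (normal diet, -log10 q 5.51) and 19 over 5.38 (deficient diet). A second deficient-diet peak lay 939 bp before that start. Ncapd3 had 1 peak in each list, at sites 40045 bp apart.

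Among single genes, Lmnb2 had the densest peaks of the set, 13.6 (normal diet) and 21.7 (deficient diet) per 100 kb of window. Ncaph2 followed with 10.8 and 13.5, above Lmna with 2.05 and 10.2. Lmnb2, a B-type lamin with a span of 16.9 kb, had 5 normal-diet and 8 deficient-diet peaks, the most in both lists. Of its 200 genes of like length, 4 had at least 5 and 2 had at least 8. Only 2 of the 5 normal-diet summits lay inside the gene, and the others were in Tmprss9 and Timm13 downstream, while 6 of the 8 deficient-diet summits lay inside. Overlapping peaks stood in Timm13, 1377 bp past the 3′ end (14 over 2.65 and 24 over 5.38, summits 2 bp apart), and inside the gene (15 over 3.00 and 23 over 5.38). At the start, a deficient-diet peak with 21 over 5.38 had its summit 108 bp into the gene. The strongest normal-diet peak, in Tmprss9, had 19 over 2.87 and a -log10 q of 6.50.

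Lmna, the gene of the A-type lamins that is mutated in inherited cardiomyopathy, had 1 normal-diet and 5 deficient-diet peaks, all inside the gene. Of its 200 genes of like length, 103 had at least 1 and 17 at least 5. The normal-diet peak (chr3:88482021-88482211, 17 over 2.65, -log10 q 5.51) lay 950 bp from the 3′ end and overlapped a deficient-diet peak (23 over 5.38) by 54 bp, with summits 427 bp apart. Of the other 4 deficient-diet peaks, 3 lay in the 3′ part of the gene, with pileups of 21 or 22, and 1 had its summit 335 bp after an annotated start (23 over 5.38). Lmnb1, the other B-type lamin, had 2 deficient-diet peaks inside the gene, with 27 over 6.13 and a -log10 q of 5.96 near an end, and 24 over 5.38. No normal-diet summit lay within 130773 bp of its span. Lbr, the receptor that holds chromatin at the lamina, had the reverse, with 1 normal-diet peak (13 over 3.00) and none in the deficient-diet list.

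**Figure D4:**
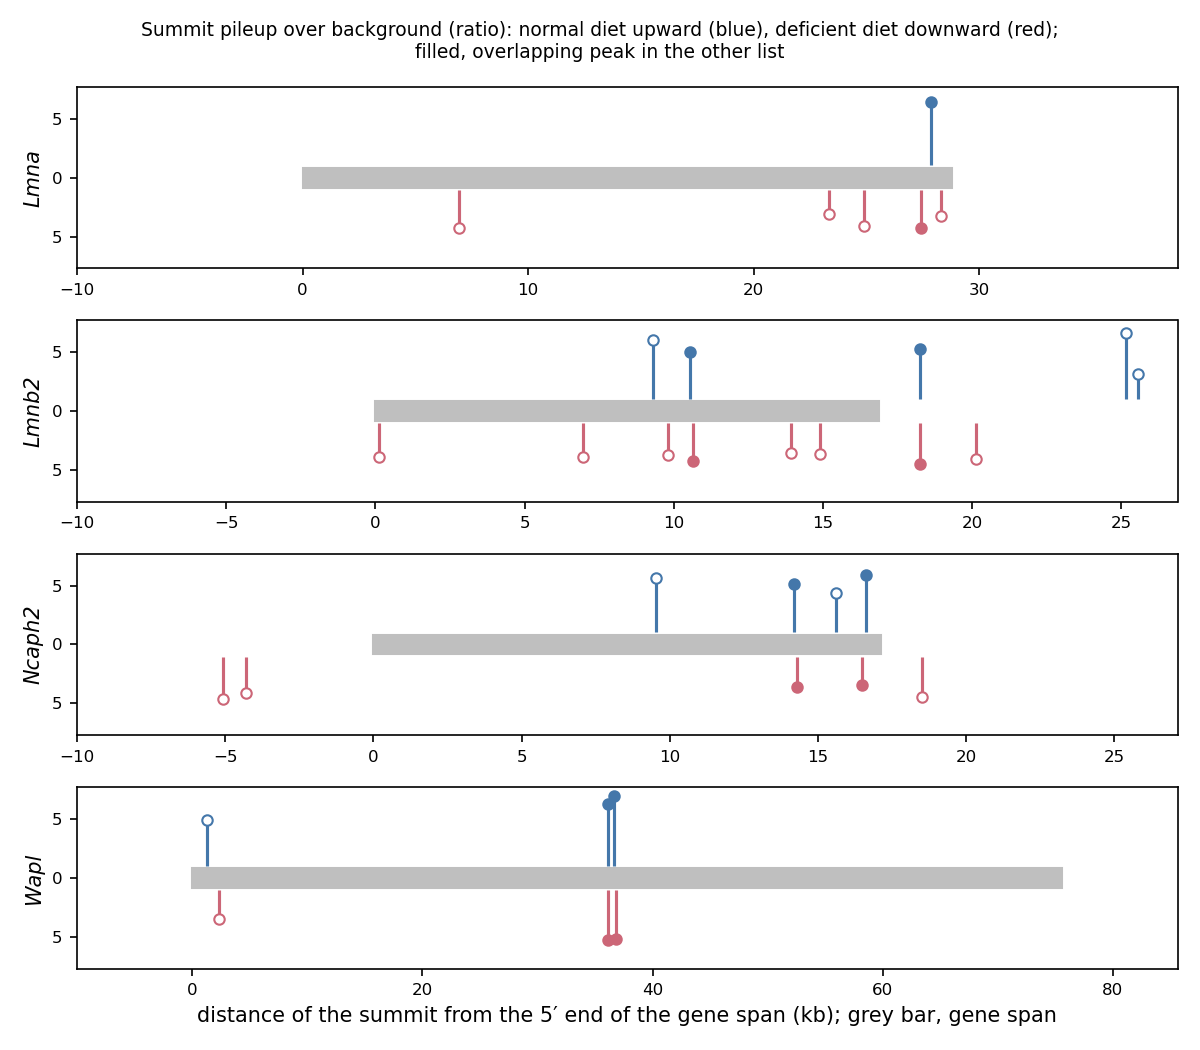
Positions of VDR summits at Lmna, Lmnb2, Ncaph2 and Wapl (horizontal axis, kb from the 5′ end of the gene span, grey bar the span), with the height of each line giving pileup over background as a ratio, upward for the normal diet (blue) and downward for the deficient diet (red). Filled circles have an overlapping peak in the other list: 1 pair at Lmna and 2 pairs at each of the other genes.

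Of the boundary and looping factors, Ctcf, which binds insulator sites and halts cohesin, had no peak inside its span. Its 1 deficient-diet peak lay 6602 bp past the 3′ end, within Carmil2, with 25 over 6.79, and the nearest normal-diet summit was 12051 bp away, outside the window. Ctcfl, the germline relative of Ctcf, had 3 deficient-diet peaks (20, 20 and 24 fragments), all outside its span and inside the non-coding gene Gm40011. Yy1, a zinc finger protein that joins enhancers to promoters, had 3 deficient-diet peaks, 2 of them in the gene, the stronger with 25 over 5.38 and a -log10 q of 5.82. Neither Ctcf, Ctcfl nor Yy1 had a normal-diet peak, which 56.5%, 47.5% and 53.5% of their 200 genes of like length had. At least 3 deficient-diet peaks were found at 43 of the 200 for Ctcfl and 47 for Yy1, and at least 1 at 142 for Ctcf.

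Ldb1, which bridges enhancers and promoters through LIM proteins, had 3 deficient-diet peaks inside the gene, with pileups of 24, 21 and 25, and 1 normal-diet peak in the neighbouring Pprc1 (16 over 2.65). Satb1, which binds AT-rich anchors, had 1 normal-diet peak, 431 bp after an annotated start (18 over 3.42), and no deficient-diet peak. Smchd1, an SMC-like protein of the inactive X, had 2 peaks in each list inside the gene, of which 1 pair overlapped, with 14 over 2.65 and 24 over 6.13. Maz, a zinc finger factor found at boundaries, had 1 peak in each list, in Mvp and Prrt2 and not in Maz itself. Zfp143 had none.

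Smc5 and Smc6 form the third SMC complex, which works in DNA repair. Smc5 had a normal-diet peak 230 bp inside the 5′ end of its span (17 over 2.65, -log10 q 5.51) and a deficient-diet peak 4160 bp outside it, and Smc6 had 1 deficient-diet peak inside the gene (21 over 5.38).

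Near gene ends, at most 1 kb from either, the normal-diet list had summits at 5 genes, 13.5% (4.54 to 28.8%) against 19.0% of genes of like length, and the deficient-diet list at 10 genes, 27.0% (13.8 to 44.1%) against 22.3%. The normal-diet genes were Ncaph2, Ncapg, Ncapg2, Lmna and Smc5. The deficient-diet genes were the first 4 of these with Ctcfl, Smc3, Esco1, Lmnb1, Lmnb2 and Ldb1. With the deficient-diet list trimmed to the length of the other, its count fell to 4, which is 10.8% (3.03 to 25.4%) and under the 15.1% of genes of like length, where the whole list was above them. Where the strand was known, 4 normal-diet peaks were at a 5′ and 2 at a 3′ end of the span, and 5 and 3 in the deficient-diet list. A span end can differ from an annotated start. The Wapl peaks 291 bp before and 773 bp after its start were not counted here. The Smc5 peak, which was counted, lay 1093 bp before its annotated start.

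Sites with overlapping peaks numbered 10, at Lmna, Lmnb2, Ncapg, Ncapg2, Ncaph2, Smchd1 and Wapl. They made up 35.7% (18.6 to 55.9%) of the 28 normal-diet peaks and 20.8% (10.5 to 35.0%) of the 48 deficient-diet peaks, beside 34.0% and 21.3% of the whole lists. Summits were 1 to 427 bp apart, with a median of 115 bp and 4 pairs within 100 bp. Pileup over background was higher in the normal-diet library at all 10, with medians of 5.64 and 4.27. Among peaks on the genome-wide background, the lowest ratio in the list was also higher there, 4.14 against 2.97. At each of the 10 sites the Poisson intervals of the pileups, divided by the background, overlapped between the libraries, as with 6.98 (4.25 to 10.8) and 5.19 (3.53 to 7.37) at the downstream Wapl site. These intervals hold counting error alone and the sites had to be listed in both libraries, so a difference between the libraries was not tested.

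**Figure D5:**
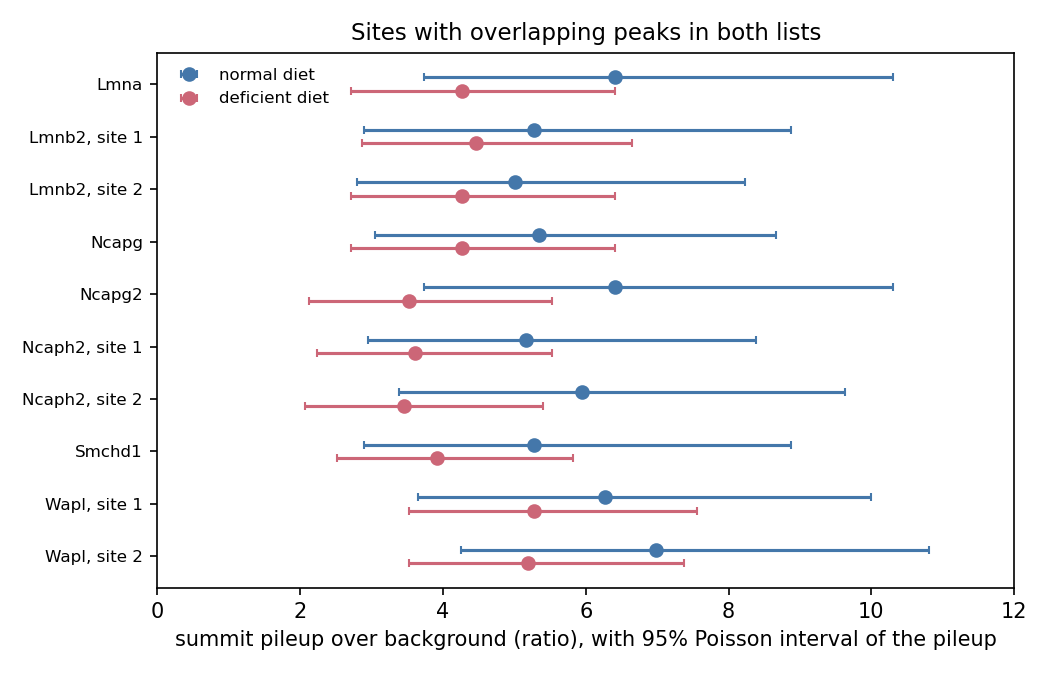
Summit pileup over background (horizontal axis, ratio) at the 10 sites with overlapping peaks, in the normal-diet library (blue) and the deficient-diet library (red), with bars for the 95% Poisson interval of the pileup. The intervals overlap at each site, and the highest ratio is 6.98, at a Wapl site.

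Peaks with no partner were set against these limits. Of the 38 deficient-diet peaks with no partner, 22 stood on the genome-wide background, and 16 of these had a pileup over background under 4.14, the lowest that the normal-diet list held at its own. On its own genome-wide background, the normal-diet list holds no peak that weak. Of the 18 normal-diet peaks with no partner, 8 stood on the genome-wide background, with ratios of 4.90 to 6.78. All are over the 2.97 of the deficient-diet list by construction, because no normal-diet peak on that background is under 4.14. The ratios therefore do not show whether the deficient-diet library could have listed these sites. Pileups at the genes were typical of the lists, with medians of 16 (13 to 20) and 22 (17 to 31) fragments, the same medians as over all peaks.

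Most summits lay inside the genes themselves. Of the normal-diet summits at the genes, 20 lay inside the span and 8 in the flanks, and of these 8, 7 were inside another gene. In the deficient-diet list 32 lay inside and 16 in the flanks, 12 of them inside another gene. No share in genes of like length is given for flank summits inside another gene. A normal-diet summit inside the span was found at 13 genes, 35.1% against 44.9% of genes of like length. For the deficient-diet list it was 15 genes, 40.5% against 55.2%.

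A further 26 genes of chromosome structure, chosen as a second list, were counted the same way. Of these, 16 had a normal-diet and 17 a deficient-diet summit, 12 had both, 6 had overlapping peaks and 5 had none. Shares in genes of like length would give 14.8, 17.2, 12.5, 7.14 and 6.49 of 26, so these counts were near the background. Among those of the nuclear envelope, Sun2, an inner membrane protein that couples lamins to the cytoskeleton, had 4 normal-diet and 5 deficient-diet peaks, and Lemd2 had 2 and 7, each with an overlapping site. Syne1, which spans 531 kb, had 3 and 9, and Syne2, which spans 293 kb, had 2 and 3. Lemd3 had 2 and 0, Tmpo 1 and 0, and Sun1 0 and 2. Counts of genes of like length are not given for these single genes. Emd, the gene of emerin on X, and Banf1 had none. Of other cohesin genes, the meiotic Rad21l and the separase gene Espl1 had no peak. The meiotic Stag3 had 1 normal-diet and 3 deficient-diet peaks without overlap, the meiotic kleisin Rec8 had 1 and 4, and Smc1b had 0 and 1.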

How the data were processed

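VDR ChIP-seq peaks of mouse left ventricle were used from 2 libraries, 1 per maternal diet, grouped by the tissue labels. The authors deposited 1 peak list per library on mm10, per the file headers. Per the submitters' processing notes, SAMtools and MACS2 were among the tools. The aligner, threshold, control library and pooling are not given in the sources used here. Each deposited peak carries a fold enrichment (a ratio over local background) and the deposited -log10 of its p-value and q-value, all the authors' own.

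In 23455 normal-diet peaks, end and score were joined by a point and were split there. One line without a start was left out. Pileup and background were recovered from fold enrichment, taken as pileup plus 1 over background plus 1, and -log10 p, taken as Poisson. A whole-number pileup fitted every peak to within 0.00029. The recovery was tested on simulated data. Peaks overlapping by at least 1 bp were called partners.

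Gene spans and promoters came from RefSeq (GRCm38.p6). Comparison genes were the 200 protein-coding genes nearest in span length to each of the 37, without the 37. The genes, groups and lists were chosen with earlier results of these data known. Genes given in full had overlapping peaks, a summit within 1 kb of an end, one of the 5 strongest peaks or one of the 3 highest counts in a list, and the rest are given more briefly. Intervals are 95% binomial (Clopper-Pearson) or Poisson and cover counting error only. Python 3.11.15 and scipy 1.17.1 were used.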

Additional observations from a re-analysis of the deposited data

How the results depend on the processing

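No paired analysis was possible because there are no replicates to pair or to leave out. Depth and the length of the lists limit every count. Of 74 recomputed values of 14 results, 30 stayed within 1.5 times of the count or within the binomial interval of the share, and 44 did not. The counts for cohesin and lamina genes under other settings were chosen after seeing the data, and the rest were planned. Where no cause is given, the cause was not tested.

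At a -log10 q of 5 or more, which leaves fewer peaks by construction, 6 genes had a normal-diet and 6 a deficient-diet summit, 2 had both and 1, Wapl, had overlapping peaks. The genes carried 7 and 9 peaks, and 3 and 1 had a summit within 1 kb of an end. Genes of like length had a summit in 29.3% and 29.7%. Cohesin genes carried 3 and 2 peaks, where genes of like length summed to 6.90 and 7.21, and lamina genes 2 and 3, against 1.41 and 1.36.

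With the deficient-diet list trimmed to the length of the other, its peaks numbered 29 at all genes and 4 at cohesin genes, its genes with a summit near an end 4, and 54.2% of genes of like length had a summit. With spans alone, 7 genes had both, against 12.9 from the share in genes of like length. Lamina genes had 4 normal-diet peaks against 2.52, and genes of like length had a summit in 44.9% and 55.2%. A window of 1 kb gave 47.2% and 57.7%. A window of 50 kb gave 28 genes with a normal-diet summit, 26 with both, 14 with overlap, 87 and 130 peaks, 22 and 30 at cohesin genes, 18 and 36 at lamina genes, and 77.8% and 85.4% of genes of like length. Within 3 kb of an end, 8 genes had a normal-diet summit, against 10.9 from the share in genes of like length. Overlap by 50% of both peaks, and summits within 100 bp, each gave 4 genes. All protein-coding genes had a summit in 49.8% and 59.5%. Without Lmnb2, lamina genes had 2 and 7 peaks, and without Wapl, cohesin genes had 4 and 4. Cohesin counts were under those of genes of like length in the settings run for them, which were a -log10 q of 5 or more, trimmed lists, spans alone, 50 kb, without Wapl and without the genes on X.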
